A study of Mus musculus with 6 samples.

Results

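Mature olfactory sensory neurons (mOSNs) in which transcripts of more than 1 olfactory receptor (OR) gene were counted were examined by single-cell RNA-seq of the mouse main olfactory epithelium. Of 24830 cells with at least 1000 unique molecular identifiers (UMIs, each counting 1 captured RNA molecule) and 500 genes, 5535 were taken as mOSNs, with at least 10 *Omp* UMIs, more *Omp* than *Gap43* UMIs, at least 5 UMIs of *Cnga2*, *Adcy3* and *Gng13* together and fewer than 5 of *Cyp2g1*. The members were chosen by the counts of their ORs. A dual-OR cell was an mOSN whose second most abundant OR gene also had at least 3 UMIs, and 324 of the 5535 mOSNs met this rule. In 18 of them, all from 1 library, *Olfr17* was one of the pair, and these are described apart, which left 306 dual-OR cells. They were set against 4300 single-OR cells, in which the first OR had at least 3 UMIs, the second had fewer and *Olfr17* was not the first. A further 527 mOSNs held no OR at 3 UMIs.

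Each mOSN is understood to transcribe 1 allele of 1 OR gene out of the largest gene family of the mouse genome. OR genes lie in clusters on many chromosomes, and the ORs that are not chosen are packed into heterochromatin marked by H3K9 methylation and bound by HP1 proteins. Immature OSNs, which express *Gap43*, can transcribe several ORs at low levels before 1 becomes dominant, and a neuron that matures turns on *Omp*, the cyclic nucleotide-gated channel subunit gene *Cnga2* and the adenylyl cyclase gene *Adcy3*. ORs also differ by zone, and cells of the dorsal zone express the quinone oxidoreductase gene *Nqo1* while cells of the ventral zones express the adhesion molecule gene *Ncam2*.

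The study compared mice in which Cre replaces the *Cbx1* coding sequence (HP1β) with *Cbx5* (HP1α) with control mice, and a transgenic mouse that expresses the OR P2 (*Olfr17*) with its driver control. The 2 swap libraries were labelled *Cbx*/* with a Cre allele that acts in neuronal lineages, control replicate 1 wild type with the same Cre allele, and control replicate 2 *Cbx*/* without Cre. The *tetOP2* library was labelled gg8-tTA; tetOP2iresGFP, in which the gg8-tTA driver turns on the *Olfr17* transgene, and the gg8tTA library carried the driver alone. All cells came from papain-dissociated main olfactory epithelium, the series' description speaks of sorted cells, and the labels give no age. The *Cbx1* level of dual-OR cells was 7.93 and 2.74 CPM (UMIs of a gene scaled by the total UMIs of its cells) in the swap libraries against 90.8 and 162 CPM in the control libraries, and the *Cbx5* level was 102 and 106 CPM against 28.8 and 43.7 CPM. The control genotypes thus differed from each other, and *Xist* was found at 1292 to 1485 CPM in dual-OR cells of swap replicate 1, *tetOP2* and gg8tTA but at 0 in those of swap replicate 2 and both controls, so that sex was not matched between the libraries.

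The dual-OR cells numbered 41 and 59 in the swap libraries, 64 and 88 in the control libraries, 11 in *tetOP2* without *Olfr17* pairs and 43 in gg8tTA. Their UMIs summed to 630181 and 1095794 in the swap libraries, 936540 and 1534855 in the control libraries, 160261 in *tetOP2* and 698465 in gg8tTA. The label of mature neurons was checked on markers. The 16 listed genes of olfactory signalling and cilia that the rule did not use summed to 78.7 and 89.8 UMIs per 10000 in dual-OR cells of the swap libraries, 85.9 and 107 in those of the control libraries, 95.3 in *tetOP2* and 84.3 in gg8tTA. In single-OR cells they summed to 82.9, 103, 91.9, 111, 92.6 and 95.5 in the same order. *Gnal*, the olfactory G protein alpha subunit gene, had between 1541 CPM (gg8tTA) and 3405 CPM (control replicate 2) in dual-OR cells and between 1683 and 3310 CPM in single-OR cells. No more than 20 barcodes were shared by any 2 libraries.

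The pairs were first described by their position, and 3 windows upstream of OR genes are printed to show what lies before the genes of the pairs *Olfr39*/*Olfr872* and *Olfr1029*/*Olfr1030*, which recurred across libraries. They are the only genes of the 10 most frequent pairs for which the RefSeq promoter table (GRCm38.p6) held at least 200 bases before the annotated start of the gene model. Each window lies on the plus strand, at chr9:20282101-20282350 for *Olfr39*, chr9:20236912-20237118 for *Olfr872* and chr2:85979062-85979275 for *Olfr1030*. The last window starts 148 bases after the gene model of *Olfr1029* ends. Capitals mark TAATTA and TAATGA, searched on both strands, the core letters of sites bound by homeodomain proteins such as Lhx2.
Olfr39: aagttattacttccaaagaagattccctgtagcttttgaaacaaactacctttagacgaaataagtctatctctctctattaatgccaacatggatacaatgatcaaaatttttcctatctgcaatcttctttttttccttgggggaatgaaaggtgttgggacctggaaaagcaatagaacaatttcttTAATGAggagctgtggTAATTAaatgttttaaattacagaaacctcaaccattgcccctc
Olfr872: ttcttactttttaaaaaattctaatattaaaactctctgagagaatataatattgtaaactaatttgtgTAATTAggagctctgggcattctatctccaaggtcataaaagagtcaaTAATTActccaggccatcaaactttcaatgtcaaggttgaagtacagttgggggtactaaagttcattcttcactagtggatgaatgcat
Olfr1030: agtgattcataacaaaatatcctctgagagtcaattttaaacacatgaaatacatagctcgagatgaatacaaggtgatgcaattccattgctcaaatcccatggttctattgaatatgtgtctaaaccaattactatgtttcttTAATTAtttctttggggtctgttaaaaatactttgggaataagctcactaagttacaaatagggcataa
TAATTA was found in each of the 3 windows, 2 times in that of *Olfr872*, and TAATGA only in that of *Olfr39*. Of 944 OR promoter windows in the table, 18.6% held TAATTA and 28.8% held TAATGA, against 5.29% and 9.78% of all 32851 windows. These shares were taken over whole windows of 300 bases around the RefSeq start. The printed stretches are the parts of such windows before the gene model, so they cannot be set directly against these shares. A match of letters is a description and not a binding site.

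Dual-OR cells carried pairs of ORs that lie next to each other in the genome. On the GENCODE vM21 annotation (GRCm38), the gene models of both ORs lay at most 100 kb apart in 190 of the 306 cells, or 62.1% (nearby pairs). In 26 cells they lay farther apart on 1 chromosome, in 87 on different chromosomes and in 3 an OR could not be matched to the annotation, which together are called distant pairs (116 cells). In 133 cells the *Olfr* numbers differed by 5 or less, and all of these were nearby pairs. Another 57 nearby pairs had numbers that differed by more.

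By library, 65.0% and 64.4% of the pairs of swap cells, 59.4% and 65.5% of those of control cells, 90.9% of those of *tetOP2* and 21 of the 42 of gg8tTA were nearby. The background was given by all pairs of single-OR cells of the same library that had chosen different ORs, and 0.636% to 0.715% of these were nearby. No library overlapped its background. Pairs with numbers 5 or less apart made up 51.2% and 47.5% in the swap libraries, 37.5% and 44.3% in the control libraries, 90.9% in *tetOP2* and 25.6% in gg8tTA, against 0.711% to 0.882% of background pairs. The mean difference was 48.7 points (SD 22.2, n = 6 libraries, higher in 6 of 6), with p = 0.03125 in an exact two-sided sign-flip permutation test, the smallest value that 6 libraries allow. Adjusted over the 4 permutation tests made here by Benjamini-Hochberg, this exact permutation p is 0.0625. The difference was 65.2 points (SD 13.6) by the distance of 100 kb.

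**Figure D1:**
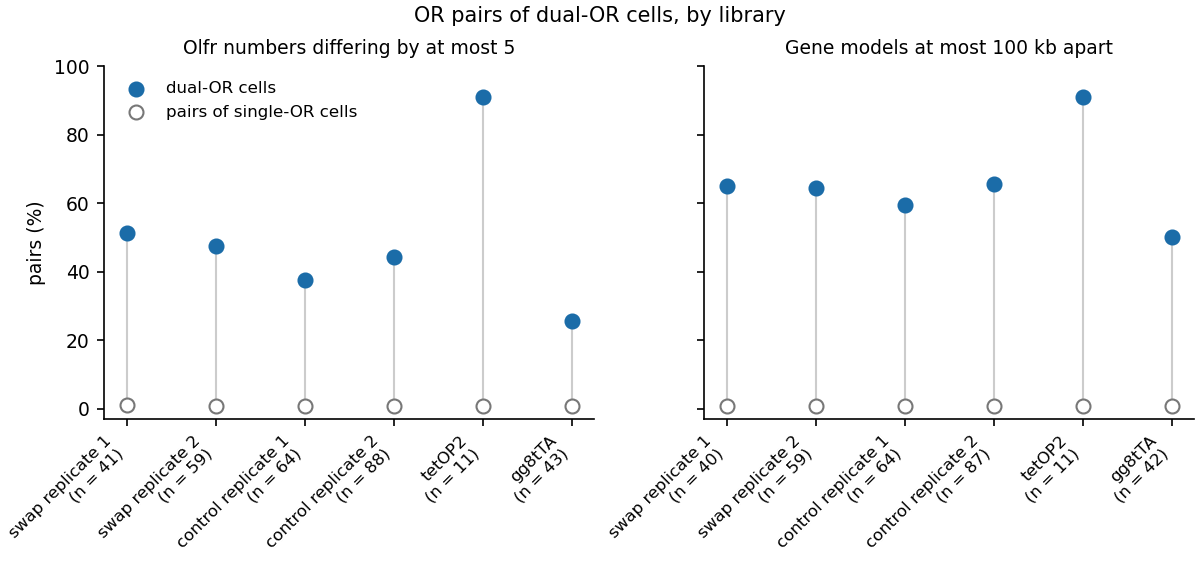
Share of OR pairs (percent, y axis) with *Olfr* numbers at most 5 apart (left) or gene models at most 100 kb apart (right), for each library on the x axis; n is the number of dual-OR cells with a pair that could be classed. Filled points are dual-OR cells and open points all pairs of single-OR cells of the same library. In every library the filled point lies between 25.6% and 90.9% and the open point below 1%.

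Nearby pairs recurred. The 190 cells held 73 different pairs, of which 31 were found in more than 1 cell and together covered 148 cells, and 26 were found in more than 1 library. The 116 distant cells held 114 different pairs, of which 2 were found in more than 1 cell and 0 in more than 1 library. No other OR gene lay between the members of the pair in 153 nearby cells (80.5%). Both genes lay on the same strand in 145 (76.3%), and in 94 of these 145 cells (64.8%) the upstream gene had more UMIs. Counted once per pair, 84.9% of the 73 pairs were on the same strand, against 63.2% of the 3868 annotated OR pairs at most 100 kb apart. Gene models less than 1 kb apart made up 12.3% of the 73 pairs and 0.776% of the annotated pairs. Gene models overlapped in 4 of the 73 pairs (5.48%) and in 0.414% of the annotated ones. Among pairs with no OR gene between, the contrast was smaller, at 87.9% of 58 pairs on the same strand against 69.9% of 1026 annotated pairs, 15.5% against 2.92% less than 1 kb apart and 6.90% against 0.975% overlapping. Shares over pairs are descriptions, since pairs of 1 cluster share genes.

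The most frequent pair was *Olfr55* (chr17:33168447-33180753, plus strand) with *Olfr239* (chr17:33191302-33202506, plus strand), 10548 bp apart, which was found in 24 cells of 5 libraries, 10 of them in control replicate 2. *Olfr55* was first in 12 of the cells and *Olfr239* in the other 12. Of all 25 mOSNs with *Olfr55* first, 12 (48.0%) also held *Olfr239* at 3 UMIs, and of 17 with *Olfr239* first, 12 (70.6%) held *Olfr55*. The exons of these genes share an identical run of 591 bases, so that reads from 1 of them cannot all be told from reads of the other. *Olfr317* and *Olfr322* (chromosome 11, 61489 bp apart, 12 cells) share a run of 209 bases and *Olfr596* and *Olfr603* (chromosome 7, 70279 bp apart, 7 cells) a run of 295 bases.

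The other 7 of the 10 most frequent pairs share no more than 29 bases in a run, and in several of them the share of cells with the other gene differed by which gene was first. *Olfr872* (chr9:20237119-20261643, plus strand) lies 20707 bp upstream of *Olfr39* (chr9:20282351-20287578, plus strand), and the pair was found in 10 cells of 5 libraries. All 10 mOSNs with *Olfr872* first also held *Olfr39*, at 31.4 UMIs per 100 of *Olfr872*, whereas 0 of the 3 mOSNs with *Olfr39* first held *Olfr872*. *Olfr1030* (chr2:85979276-85988294, plus strand) starts 362 bp after *Olfr1029* (chr2:85973895-85978913, plus strand), and 14 of the 17 mOSNs with *Olfr1030* first (82.4%) held *Olfr1029*, at 7.64 UMIs per 100. *Olfr1029* was first in 1 mOSN, without *Olfr1030*. *Olfr1042* and *Olfr1043* (chromosome 2, minus strand, 51 bp apart) paired in 8 cells. All 6 mOSNs with *Olfr1043* first, the upstream gene, held *Olfr1042*, and 2 of the 7 with *Olfr1042* first held *Olfr1043*.

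*Olfr615* and *Olfr616* (chromosome 7, 7 cells) face each other on opposite strands with ends that overlap by 52 bases, and all 5 mOSNs with *Olfr616* first held *Olfr615*, while 2 of 9 with *Olfr615* first held *Olfr616*. *Olfr776* and *Olfr777* (chromosome 10, 6 cells) lie 108 bp apart on opposite strands, *Olfr18* and *Olfr873* (chromosome 9, 5 cells) 8552 bp apart on opposite strands, and *Olfr1033* and *Olfr1034* (chromosome 2, 4 cells) 689 bp apart on the same strand. No such order was seen in the last pair, with 1 of 2 mOSNs with *Olfr1033* first and 3 of 8 with *Olfr1034* first holding the other gene. Whether the counting used the strand is not given in the sources used here, so it is not known whether reads of overlapping genes on opposite strands were kept apart.

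Shared sequence was measured for all pairs. Exons shared a run of at least 50 identical bases in 34 of the 73 nearby pairs (46.6%, 91 cells) and in 0 of the 111 distant pairs with annotated exons. Gene models overlapped in 15 nearby cells. In 88 nearby cells (46.3%) the genes neither overlapped nor shared such a run. With all overlapping or run-sharing pairs left out of members and background, an alternative chosen after seeing the data, the nearby share was 51.7% and 53.3% in the swap libraries, 38.1% and 42.3% in the control libraries, 4 of 5 pairs in *tetOP2* and 7 of 28 in gg8tTA, a mean 47.7 points above background (SD 18.5). It was above background in all 6 libraries.

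Class I ORs, the fish-like ORs of a single cluster on chromosome 7, made up both members of 35 nearby pairs (18.4%), and 11.3% of single-OR cells had chosen a class I OR. Distant pairs joined class I with class II in 15 cells (12.9%). *Olfr1033* was second in 15 cells, 11 of them distant pairs, with a median of 3 UMIs, and 9 of the 15 cells were predicted doublets. At least 1 *Olfr1033* UMI was found in 7.17% of mOSNs (median depth 12226 UMIs) and in 13.5% of sustentacular cells (15388.5 UMIs), supporting cells that choose no OR. Its share in mOSNs is therefore not above background.

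*Olfr55* and *Olfr239* were each second in 12 cells, *Olfr39* in 10, and *Olfr317*, *Olfr615* and *Olfr1029* in 9. Apart from 1 cell of *Olfr317*, the first OR lay at most 100 kb away in all of these cells. *Olfr39* and *Olfr1029* had medians of 13.5 and 9 UMIs as the second OR. At least 1 UMI was found in 0.343% of mOSNs for *Olfr39* and 0.379% for *Olfr1029*, against 0.189% and 0.027% of sustentacular cells.

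The second OR was a minor transcript in most cells. Over the 306 cells the first OR had 5 to 908 UMIs with a median of 66, and the second 3 to 208 with a median of 9. At the threshold, 54 of all 324 cells, *Olfr17* pairs included, had a second OR at exactly 3 UMIs and 37 at 4 UMIs, while 178 mOSNs had one at 2 UMIs and did not meet the rule. The second OR reached 10 UMIs in 153 of the 324. In nearby pairs the medians were 51 and 7 UMIs and in distant pairs 92.5 and 15.5 UMIs, and the OR of single-OR cells had a median of 85 UMIs. The first OR of nearby pairs was below that of single-OR cells in each library, with medians of 42, 72, 43, 52, 75.5 and 48 UMIs against 60, 95, 71, 104, 82 and 95 in swap replicates 1 and 2, control replicates 1 and 2, *tetOP2* and gg8tTA. A further OR at 3 UMIs was found in 31 dual-OR cells, 19 of them with nearby pairs. These counts were used by the rule and carry no test.

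**Figure D2:**
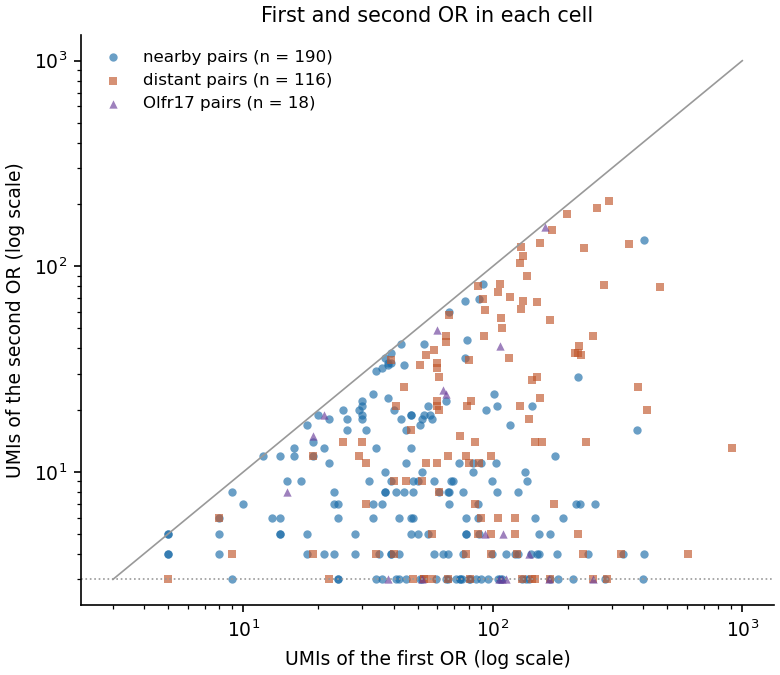
UMIs of the first OR (x axis, log scale) and of the second OR (y axis, log scale) in each dual-OR cell, for nearby, distant and *Olfr17* pairs. Second ORs of nearby pairs have a median of 7 UMIs and those of distant pairs 15.5.

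Nearby and distant pairs differed in depth. Nearby cells had a median of 11666 and 13063.5 UMIs in the swap libraries, 12398.5 and 12550.0 in the control libraries, 12629.5 in *tetOP2* and 13061 in gg8tTA, which was 0.976 to 1.08 times the median of single-OR cells of the same library. Distant cells had medians of 20681 and 25284 in the swap libraries, 16787.5 and 23200 in the control libraries and 20428 in gg8tTA, and the 1 distant cell of *tetOP2* had 23569. All distant medians lay above all nearby ones. More than 20000 UMIs were found in 5.79% of nearby, 52.6% of distant and 2.93% of single-OR cells. A minimum of 3 UMIs is reached more readily in a deeper cell, so depth against single-OR cells is a description.

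**Figure D3:**
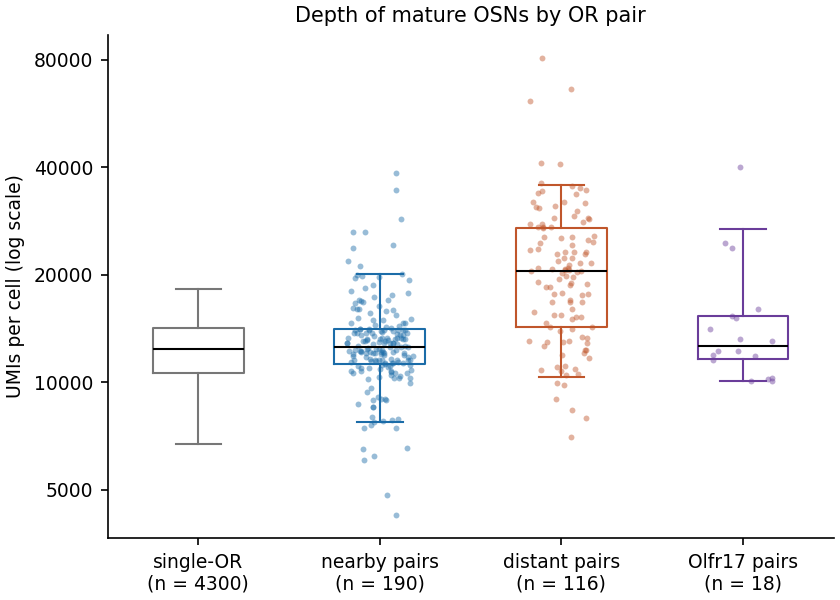
UMIs per cell (y axis, log scale) in single-OR cells and in cells with nearby, distant and *Olfr17* pairs. Boxes give the quartiles with the median as a line, whiskers the 5th and 95th percentiles, and points single dual-OR cells. The median is 12368 UMIs in single-OR, 12564 in nearby and 20525 in distant cells.

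Doublet scores and zone markers were measured beside the depth. A score against simulated doublets marked 36.2% of distant, 6.32% of nearby and 4.26% of single-OR cells as predicted doublets. *Nqo1* and *Ncam2*, markers of opposite zones, were both found in 21.6% of distant, 3.16% of nearby and 4.12% of single-OR cells. Among cells of 8000 to 16000 UMIs, an alternative chosen after seeing the data, 5 of 35 distant cells (14.3%), 1.37% of nearby and 1.63% of single-OR cells were predicted doublets. Both zone markers were then found in 0 of the 35 distant cells, in 2.05% of nearby and in 4.05% of single-OR cells. The 0 of 35 allows a share of up to 8.57%, above that of single-OR cells. Whether their excess in distant cells remains at this depth cannot be told from so few cells. Predicted doublets were kept, and their part in the distant pairs was not tested. Without them, neighbouring numbers were 54.2 points above background.

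Whether both ORs of a pair belong to the same side of the epithelium was asked with *Nqo1*. A side was given to the 397 ORs with at least 3 single-OR cells in the control and gg8tTA libraries, and 137 of them were dorsal, with *Nqo1* in at least 50% of their single-OR cells. Of the 77 dual-OR cells with a side for both ORs, 65 held ORs of the same side. These were 6 of 8 and 11 of 11 pairs in the swap libraries, 15 of 18 and 23 of 29 in the control libraries, the only pair of *tetOP2* and 9 of 10 pairs in gg8tTA, and the background was 50.5% to 62.9%. The mean difference was 31.7 points (SD 9.44, higher in 6 of 6 libraries, exact sign-flip permutation p = 0.03125, adjusted 0.0625 over the 4 tests). Without nearby pairs, 25 of 37 pairs were of the same side, a difference of 18.3 points (SD 19.7, higher in 4 of 5 libraries and lower in control replicate 2, exact permutation p = 0.125, where 5 libraries allow no value below 0.0625).

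The study asked whether the swap changes how many ORs a cell transcribes. Dual-OR cells made up 5.33% of the mOSNs of swap replicate 1 (95% Clopper-Pearson interval 3.85 to 7.16) and 5.89% of those of replicate 2 (4.51 to 7.53), against 5.66% (4.39 to 7.18) and 6.91% (5.58 to 8.44) in control replicates 1 and 2. The groups overlapped. The difference was -0.676 points, with p = 0.667 in an exact two-sided permutation test of 2 against 2 libraries, which cannot go below 0.333. It was -0.0538 points without control replicate 2 and -1.30 points without control replicate 1. In *tetOP2* all 29 dual-OR cells made up 4.32% of mOSNs (2.91 to 6.15), and in gg8tTA the share was 6.24% (4.55 to 8.31). With *Olfr17* cells left out of both counts, 11 of 250 *tetOP2* mOSNs with an OR at 3 UMIs were dual-OR cells (4.40%, 2.22 to 7.74), against 43 of 603 in gg8tTA (7.13%, 5.21 to 9.49), and these intervals overlap. Nearby pairs alone made up 3.38% and 3.79% of swap mOSNs, against 3.36% and 4.47% of control mOSNs. Intervals cover counting error only, since cells of 1 library are not replicates.

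The same count was made in immature OSNs and in sustentacular cells. After thinning every cell to 3000 UMIs, 2.67% of immature and 2.44% of mature OSNs held a second OR at 3 UMIs on average over the libraries, a difference of 0.229 points (SD 0.453, exact sign-flip permutation p = 0.3125). Unthinned, the shares were 6.32% and 5.28%. In *tetOP2*, mOSNs with an *Olfr17* pair were not counted as dual-OR cells here, but all *Olfr17* cells stayed among its 671 mOSNs. This lowers the share of mOSNs in that library and with it the averages. Without *tetOP2* the thinned difference was 0.326 points (exact sign-flip permutation p = 0.125). Thinning left out 36 mOSNs, 8 immature OSNs and 176 sustentacular cells with fewer UMIs. In thinned sustentacular cells the share was 1.04%, 1.63%, 0.132%, 3.99%, 0.217% and 0% against 1.97%, 2.71%, 2.78%, 3.08%, 0.596% and 3.48% in mOSNs of swap replicates 1 and 2, control replicates 1 and 2, *tetOP2* and gg8tTA. In control replicate 2 the share in mOSNs was thus not above that of sustentacular cells. The cells kept there had a median of 12856 UMIs as mOSNs and 22642 UMIs as sustentacular cells before thinning. The pairs differed in kind. Nearby pairs made up 62.1% of dual-OR mOSNs, 30.8% of 172 dual-OR immature OSNs and 14.4% of 132 sustentacular cells with 2 ORs, without thinning. Control replicate 2 held 60 of these 132 sustentacular cells and 14 of their 19 nearby pairs, so the last share rests mostly on that library. The cells with 2 ORs also differed in depth. Their library medians were 31077 to 48542 UMIs as sustentacular cells, 12893 to 15014 as mOSNs and 10479 to 16776 as immature OSNs. The part of depth in these shares was not tested.

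Gene expression was compared on UMIs summed per library over dual-OR and single-OR cells, with all *Olfr* genes left out and the library as a block. A gene was called where its adjusted p in edgeR's quasi-likelihood test was under 0.05 (Benjamini-Hochberg) and its log2 difference exceeded 0.58 either way. This held for 84 of 9756 genes (0.861%), of which 75 were higher in dual-OR cells (0.769%) and 9 lower (0.0923%). When the cells were divided by position of the pair, a choice made after seeing the data, 10 of 9250 genes (0.108%) were called for nearby pairs against single-OR cells, none of them higher, and 325 of 10729 (3.03%) for distant pairs, 284 higher (2.65%) and 41 lower (0.382%). Of the 84 genes, 5 were called for nearby and 73 for distant pairs. Directly compared, nearby and distant cells differed in 115 of 6129 genes (1.88%), of which 15 were higher (0.245%) and 100 lower (1.63%) in nearby cells. Without predicted doublets, which mark 36.2% of distant cells, this comparison called 7 genes in the 4 libraries that keep 10 such cells. Of the 115 genes, 81 were still tested there, 78 of them had the same sign and 4 were called.

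Some genes of younger neurons were higher in dual-OR cells, with larger list medians in distant than in nearby pairs, and no call was kept without predicted doublets, where *Ablim1* could not be tested. Of the 16 precursor and 20 immature-neuron genes listed, the latter with *Gap43*, which the rule used and which was not called, 9 and 19 were tested, and 1 and 4 were called, all higher. Over all genes tested 0.769% were called higher. The median log2 difference was 0.51 for the precursor list and 0.40 for the immature list, against -0.0030 over all genes tested. In nearby pairs the medians were 0.06 and -0.08 (all genes -0.0053) and in distant pairs 0.75 and 0.62 (all genes -0.02).

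*Sox11*, a transcription factor gene of young neurons, had a level of 586, 282, 432, 576 and 308 CPM in distant cells of swap replicates 1 and 2, control replicates 1 and 2 and gg8tTA. In nearby cells of the same libraries it had 62.9, 75.8, 120.0, 118 and 77.7 CPM, and in single-OR cells 125, 88.9, 137, 149.6 and 145 CPM. The distant values lay above all others, and the nearby ones below the single-OR ones in each of these 5 libraries, whereas in *tetOP2* the 10 nearby cells had 176 CPM and single-OR cells 112 CPM. By edgeR's quasi-likelihood test, adjusted by Benjamini-Hochberg, its log2 difference from single-OR cells was 0.98 ± 0.09 (SE, adjusted p = 0.000183) over all dual-OR cells, higher in 6 of 6 libraries, 1.66 ± 0.12 in distant pairs and -0.35 ± 0.15 in nearby pairs (adjusted p = 0.986). In the same edgeR test without predicted doublets *Sox11* was not called over all dual-OR cells, at 0.27 (adjusted p = 0.569), nor at 8000 to 16000 UMIs, at 0.39 (adjusted p = 0.0619). Its difference of nearby from distant cells was -2.19 with predicted doublets and -0.68 without them (adjusted p = 0.291).

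*Gng8*, the G protein subunit gene of immature OSNs, averaged 151 ± 119 CPM (SD, n = 5 libraries) in distant cells and 49.5 ± 49.6 CPM (n = 6) in single-OR cells, and ranged from 1.76 to 85.1 CPM with a mean of 28.3 CPM in nearby cells. Over all dual-OR cells its log2 difference of 1.33 was called by edgeR's quasi-likelihood test and was positive in 5 of 6 libraries, with *tetOP2* the exception. DESeq2 did not call it (1.14, adjusted p = 0.268), nor did edgeR without predicted doublets (0.60, adjusted p = 0.812). *Nhlh1*, a bHLH factor gene of neuronal precursors, was found in 27.6% of distant, 2.11% of nearby and 2.47% of single-OR cells. The growth cone genes *Basp1* and *Dpysl3* had log2 differences of 0.73 and 1.02 over all dual-OR cells, and *Ablim1*, which codes for an actin-binding protein, 1.76, all called by edgeR's quasi-likelihood test. In nearby pairs *Basp1* had -0.07 and *Dpysl3* -0.11, and neither was called. Neither was called without predicted doublets, at 0.21 and 0.31, or at 8000 to 16000 UMIs, at 0.31 and 0.27. *Ablim1* (0.43) and *Gng8* (0.41) were not called at 8000 to 16000 UMIs either.

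The genes by which the rule chose mOSNs are given as a description, with no test. *Gng13*, the olfactory G protein subunit gene, had a log2 difference of -0.28 in dual-OR cells, *Omp* -0.17, *Cnga2* -0.18 and *Adcy3* -0.20. *Omp* averaged 4647 ± 2786 CPM (SD) in nearby cells, 3359 ± 1758 in distant and 4867 ± 2818 in single-OR cells. These means, and those of *Gap43* below, cover 6 libraries for nearby and single-OR cells but 5 for distant cells, without *tetOP2*. Among single-OR cells *Omp* was highest in *tetOP2*, so its distant mean cannot be compared directly with the other means. *Gap43*, of growing axons, which the rule kept below *Omp*, averaged 495 ± 157 CPM in distant, 251 ± 165 in nearby and 272 ± 112 in single-OR cells, and its log2 difference over all dual-OR cells was 0.44, higher in 5 of 6 libraries and -0.89 in *tetOP2*. The whole mature list includes *Omp*, *Cnga2*, *Adcy3* and *Gng13*, so it is likewise given as a description. Over its 19 genes that passed the filter on low counts, the median log2 difference was -0.06 in nearby and -0.33 in distant pairs.

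**Figure D4:**
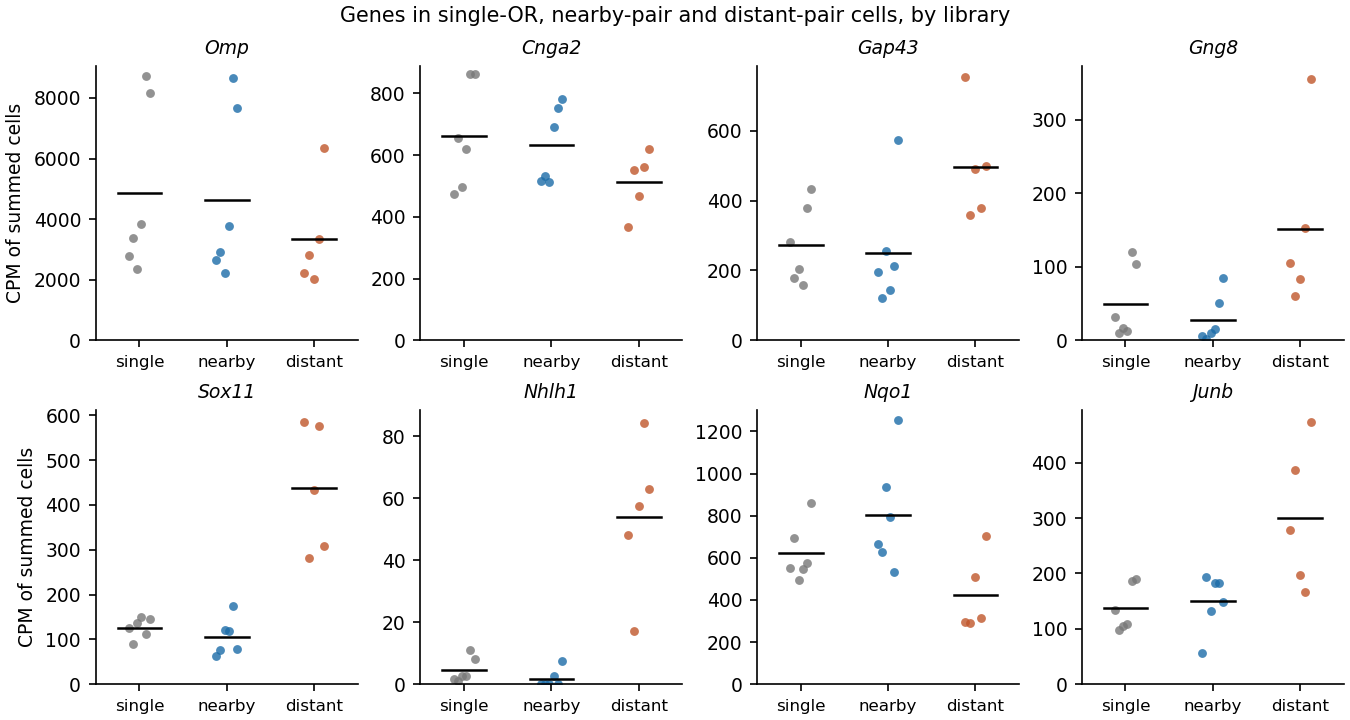
CPM of 8 genes (y axes from 0) in the summed single-OR, nearby-pair and distant-pair cells of each library (points, libraries with at least 10 such cells) with the mean as a line. *Sox11*, *Gng8* and *Nhlh1* are highest in distant cells, at means of 437, 151 and 54.0 CPM, against 105, 28.3 and 1.68 CPM in nearby cells.

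Among the other genes named by rule, *Nme2* (a nucleoside diphosphate kinase, log2 difference 1.58), *Qdpr* (dihydropteridine reductase, 0.92), *Mex3a* (an RNA-binding protein, 1.503), *Csrp2* (a LIM protein, 1.57), *Midn* (0.60), *Gadd45b* (a stress response gene, 1.03) and *Nras* (0.59) were higher in 6 of 6 libraries and called by edgeR's quasi-likelihood test. The 10 cells with most UMIs held 83.9% of the *Nme2* and 77.0% of the *Csrp2* UMIs of nearby cells, and 83.7% and 84.5% of those of distant cells. Without predicted doublets none of those still tested was called, with *Nme2* at 0.39, *Qdpr* at 0.37, *Csrp2* at 1.28, *Midn* at 0.28, *Gadd45b* at 0.59 and *Nras* at 0.25, and *Mex3a* and *Ablim1* did not pass the filter on low counts. The activity-dependent genes *Fosb* (0.87), *Junb* (0.73) and *Btg2* (0.66) were called among 13 tested genes of their list, with list medians of 0.09 in nearby and 0.49 in distant pairs. Over all genes tested 0.769% were called higher. Without predicted doublets *Fosb*, *Junb* and *Btg2* lost their calls, at -0.0034, 0.07 and 0.24. The summed level of the 16 activity genes, led by *S100a5*, went the other way and was lower in dual-OR than in single-OR cells in 5 of 6 libraries, at 101 against 143, 96.7 against 109, 92.6 against 144 and 119 against 197 UMIs per 10000 in the swap and control libraries and 103 against 104 in gg8tTA, but at 207 against 136 in *tetOP2*. *S100a5* itself had a log2 difference of -0.41 and was not called. *Hspb1* (1.17) and *Atf3* (1.14), stress genes, were called of 6 tested, and neither was called without predicted doublets (0.69 and 0.71). The 7 of 11 stress and RNA quality genes found in the matrices, nearly all of whose UMIs were of the nuclear RNA *Malat1*, summed to 372, 314, 446, 310, 422 and 380 UMIs per 10000 in nearby cells of swap replicates 1 and 2, control replicates 1 and 2, *tetOP2* and gg8tTA. In single-OR cells they summed to 325, 285, 384, 280, 306 and 317, which was lower in 6 of 6 libraries. In distant cells they summed to 318, 284, 295, 258 and 307 in the 5 libraries without *tetOP2*, each below the nearby cells, and the part of this in the results was not tested. No gene was called of 20 tested that act in OR choice and feedback (median 0.01) or of 19 tested heterochromatin genes (median 0.18). Over all genes 0.861% were called, so 0 calls in lists this short, here or for axon sorting below, is near that share. *Atf5*, the factor of the OR feedback signal, had -0.09, *Ebf2*, a factor of OR promoters, 0.03, the histone variant gene *H2afy* -0.11 and *Cbx3* (HP1γ) -0.04. *H2afy* and *Cbx3*, the most abundant of the heterochromatin list, went against most of it. Of its 19 tested genes 16 had a positive log2 difference, against 4813 of all 9756. The medians of this list were 0.09 in nearby and 0.25 in distant pairs. For axon sorting molecules *Cntn4* had -0.10 and *Efna5* 0.09, and none of 19 was called.

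Markers of other cell types were measured beside these genes. For sustentacular cells, *Ermn* (1.81) and *Gstm2* (1.71) were called of 9 tested, and the 12 genes summed to 0.692, 15.2, 1.84, 1.53, 3.29 and 4.44 UMIs per 10000 in nearby cells of swap replicates 1 and 2, control replicates 1 and 2, *tetOP2* and gg8tTA. In single-OR cells they summed to 2.17, 1.03, 0.78, 1.37, 3.85 and 5.25, so that only nearby cells of swap replicate 2 stood far apart, with *Cbr2* (559 of 860 UMIs) the most abundant. Few cells held the called genes, since 7 nearby cells had an *Ermn* UMI, 1 of them with 19 of 33, and 1 cell held 37 of the 72 *Gstm2* UMIs of nearby cells and another 39 of the 77 of distant cells. In distant cells of the 5 libraries with at least 10 such cells the 12 sustentacular genes summed to 8.93, 12.8, 0.772, 3.65 and 7.87, in the same order without *tetOP2*. The horizontal basal cell keratin genes *Krt5* (2.15), *Krt14* (1.95) and *Krt17* (2.20) were called of 4 tested, where 0.769% of all genes were called higher. Their signs differed between libraries. *Krt5* had -0.95 in swap replicate 2 and -4.55 in *tetOP2*, *Krt14* -0.97 in control replicate 2 and -5.15 in *tetOP2*, and *Krt17* -0.22 in *tetOP2*, each being higher in the others. *Krt5* was found in 2 of 190 nearby, 5 of 116 distant and 72 of 4300 single-OR cells. In distant cells, the 7 genes of that list summed to 6.77 UMIs per 10000 in gg8tTA and 3.14 in swap replicate 1 but to 0.101 to 0.776 in the other 3 libraries. The 12 ensheathing glia and stroma genes, of which 0 of 6 tested were called, stood apart in distant cells of gg8tTA, at 61.0 UMIs per 10000 against 10.7 in its single-OR cells, and 1 cell held 1157 of the 1383 *Col1a2* UMIs of all distant cells. *Col1a2* had a log2 difference of -4.80 in swap replicate 1. The part of these cell types in the results was not tested.

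Several genes that were lower in dual-OR cells had most of their UMIs in few single-OR cells. *Avp*, the vasopressin gene, had a log2 difference of -4.55 and *Camp* and *Ngp*, of neutrophil granules, -3.89 and -3.54 (edgeR's quasi-likelihood test, all called). *Avp* was lower in 6 of 6 libraries, but *Camp* and *Ngp* in only the 4 swap and control libraries, with *Camp* at 0.04 and *Ngp* at 0.57 in *tetOP2* and at 1.38 and 0.65 in gg8tTA. *Avp* was the only gene called of 11 tested in the ventral zone list (median 0.08, with -0.34 in nearby and 0.32 in distant pairs), and *Camp* and *Ngp* were called of 8 tested immune genes (median -0.74). The 10 single-OR cells with most UMIs held 72.3% of the *Avp*, 95.1% of the *Camp* and 94.8% of the *Ngp* UMIs of all 4300. The erythroid genes *Alas2* (-2.63), *Hba-a1* (-1.80) and *Hba-a2* (-2.57) were also called, which were all 3 tested, with the 6 genes of their list at a median of 0.0433 UMIs per 10000 in dual-OR and 0.473 in single-OR cells. Over all genes tested 0.0923% were called lower. *Cd55*, the only gene called of 7 tested in the dorsal zone list (median 0.11, with 0.20 in nearby and -0.55 in distant pairs), had -0.59 and *1500017E21Rik* -0.95. The 10 genes called lower for nearby pairs were *Avp*, *Camp*, *Ngp*, *Hba-a2*, *S100a8*, *S100a9*, *BC100530*, *Stfa1*, *Coch* and *Pdlim1*, named here after their values were seen.

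In the direct comparison, *Nqo1* was higher in nearby than in distant cells by 1.08 ± 0.10 (SE) on the log2 scale, with an edgeR quasi-likelihood adjusted p of 1.71e-06. It had 667, 629, 937, 795 and 1254 CPM in nearby cells of swap replicates 1 and 2, control replicates 1 and 2 and gg8tTA, against 295, 291, 507, 312 and 706 CPM in distant cells. Every nearby value lay above the distant value of its library. *Acsm4* (1.14) and the neuropeptide gene *Cartpt* (0.86) were also higher in nearby cells. *Vim* (-2.49), *Tmsb10* (-1.12) and *Stmn1* (-1.22), genes of the cytoskeleton, were lower. Without predicted doublets *Nqo1* (0.65) and *Acsm4* (0.99) were still called, and *Cartpt* (0.46), *Vim* (-1.02), *Tmsb10* (-0.47) and *Stmn1* (-0.41) were not. The genes of this comparison were named after their values were seen.

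The number of calls changed with the cells and libraries used. Without predicted doublets 9 genes were called over all dual-OR cells. Of the 84 genes, 49 were tested there, 47 of them had the same sign and 4 were called. Among cells of 8000 to 16000 UMIs 23 genes were called in 5 libraries, and of the 58 of the 84 tested there 48 had the same sign and 5 were called. Without control replicate 1, control replicate 2 or gg8tTA, 16, 30 and 24 genes were called. Without control replicate 2, nearby and distant pairs differed in 70 genes. Of the 30 called genes named here, 18 could be tested without predicted doublets, and *Avp* and *Cd55* alone kept their call. DESeq2 did not call *Gng8*, *Btg2*, *Krt14*, *Atf3*, *Ngp* and *1500017E21Rik*. With predicted doublets left out of the distant cells, 14 genes were called for distant pairs, 1 of them higher, and with them left out of both kinds of cell, 15 were called for nearby pairs, 3 of them higher. No gene of 10968 was called for a difference of this contrast between swap and control libraries by edgeR's quasi-likelihood test (0% called), with 368 at an unadjusted p below 0.05, and DESeq2 called 0, with 60. This count changed with the processing, and edgeR called 19 genes without predicted doublets, 20 at 8000 to 16000 UMIs, 105 without the filter on low counts, 197 without swap replicate 1, 79 without swap replicate 2 4 without control replicate 1 and 4 without control replicate 2.

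The 18 cells with *Olfr17* in the pair all came from *tetOP2*, where they made up 2.68% of mOSNs. *Olfr17* was second in 12 of them, with a median of 3 UMIs beside 109.5 of the first OR, and 7 of these had exactly 3 *Olfr17* UMIs. In the other 6 it was first, with a median of 61.5 UMIs beside 20 of the second. Single-OR cells with *Olfr17* numbered 371 of 610 in this library and had a median of 99 *Olfr17* UMIs, and a further 90 cells held *Olfr17* as the second OR at 1 or 2 UMIs. The 18 cells held 16 different partners, and none lay within 100 kb of *Olfr17*. Their median depth was 12657.5 UMIs, 1 of them was a predicted doublet (5.56%), and 22.2% held both *Nqo1* and *Ncam2*. Free *Olfr17* RNA of the many *Olfr17* cells and transcription in the same cell cannot be told apart by these counts where *Olfr17* is second.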

How the data were processed

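Single-cell RNA-seq was performed by the authors on 6 libraries of the main olfactory epithelium with 10X Chromium v3 chemistry. Counts were deposited by the authors, namely UMIs per gene and cell barcode made with Cell Ranger with introns included and not normalized. The submitters' processing notes name mm10, and the header of the swap and control matrices gives software version 3.1.0. Libraries held 32005196 to 63277934 UMIs. An OR gene was any of 1116 names made of Olfr and digits, and 1101 were matched by name to the annotation. Cells were filtered at 1000 UMIs and 500 genes. Sustentacular cells had at least 10 *Cyp2g1* UMIs, and immature OSNs at least 10 *Gap43* UMIs and no fewer *Gap43* than *Omp*. Predicted doublets were the highest-scoring cells against simulated doublets, at 0.8% per 1000 cells (scikit-learn 1.9.0).

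Summed counts were tested with edgeR 4.0.16 (quasi-likelihood, TMM, filterByExpr) in R 4.3.3, with DESeq2 1.42.0 as an alternative, after a check on simulated data, and adjusted p-values are by Benjamini-Hochberg. CPM of divided groups use all UMIs of the cells. Library shares were tested by exact permutation with scipy 1.17.1, and p-values measure only the spread between these libraries. Named genes were the 10 higher and 10 lower of lowest adjusted p among called genes that had 1 sign in every library (6 were lower), list members called or else the 2 most abundant, the 10 most frequent pairs and the 5 most frequent second ORs with ties, and *Omp*, *Gap43*, *Cnga2*, *Adcy3* and *Gng13*. Of the lists without a called gene, *Obp2a* and *Lyz2* (Bowman gland) had log2 differences of -0.27 and 0.05, *Pou2f3* (microvillar) 0.32 and *Col1a2* and *Col1a1* (stroma) 1.18 and 1.16. The members and lists were chosen with earlier results of these data known. A part of the genotype labels is not reported here.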

Additional observations from a re-analysis of the deposited data

Results flagged for a closer look

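Signals outside the *Olfr* genes counted as ORs were found in 3 places. Of the 527 mOSNs with no OR at 3 UMIs, 34.3% (181 cells) held an OR pseudogene at 3 UMIs, with a median of 68 UMIs. They held 41 different pseudogenes, led by *Olfr1274-ps* and *Olfr718-ps1* with 18 cells each. A trace amine-associated receptor was found at 3 UMIs in 1.26% of mOSNs (70 cells, 12 genes, median 8 UMIs). Of these 70 cells, 0 held an OR at 3 UMIs, which allows a share of up to 4.29%, and 0 held a second trace amine receptor. Of the single-OR cells, 68 held the pseudogene *Olfr1372-ps1* at 3 UMIs, beside 45 different ORs. Another pseudogene was found at 3 UMIs in 39 single-OR cells, and in 23 of these (59.0%) it lay at most 100 kb from the OR, for example *Olfr1025-ps1* with *Olfr1026* in 8 cells and *Olfr1191-ps1* with *Olfr1193* in 5 cells.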

How the results depend on the processing

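The excess of neighbouring numbers and of same-side pairs over background kept its direction under every alternative run. Leaving out 1 library gave 40.4 to 53.5 points for neighbouring numbers and 28.5 to 33.4 points for the same side, and 5 libraries allow no permutation p below 0.0625. Same-side pairs differed by 27.4 points without neighbouring pairs and by 18.3 points without pairs at most 100 kb apart. The swap difference ranged from -1.30 to -0.0538 points without 1 library. With a replicate block it was -0.676 points (exact permutation p = 0.5), -0.332 within replicates 1 and -1.02 within replicates 2. The labels do not pair these libraries, although replicate 1 minus replicate 2 correlated at 0.693 across 7978 genes between swap and control.

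In place of 84 genes, 293 were called without a filter on low counts, 23 at 8000 to 16000 UMIs, 9 without predicted doublets, 234 without neighbouring pairs, 187 with *Olfr17* kept, 48 in the swap and control libraries only, 10 and 325 with only nearby and only distant pairs, 14 with distant and 15 with nearby pairs without predicted doublets, and 16 to 115 without 1 library. The fits at 8000 to 16000 UMIs, without neighbouring pairs and with only distant pairs hold 5 libraries, since *tetOP2* had fewer than 10 such cells, and *tetOP2* left out alone gave 115. For the interaction of swap and OR number, 105 genes were called in place of 0 without the filter, 20 at 8000 to 16000 UMIs, 19 without predicted doublets, 7 with a second OR of at least 5 UMIs, 1 with single-OR cells at 0 UMIs of a second OR, 1 without neighbouring pairs and 4 to 197 without 1 library, which leaves an arm with 1 library assumed to vary like the rest. Nearby against distant pairs gave 70 to 139 genes without 1 library and 7 without predicted doublets, the latter chosen after seeing the data. The causes were not tested.

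With nearby pairs alone the log2 differences of *Sox11* (-0.35), *Basp1* (-0.0701), *Gng8* (-0.73), *Dpysl3* (-0.11) and *Fosb* (-0.0198) turned negative, as did *Fosb* (-0.33) and *Hspb1* (-0.11) at 8000 to 16000 UMIs and *Fosb* (-0.0034) without predicted doublets. A second OR under 3 UMIs was not counted, and 178 mOSNs had one at 2 UMIs.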

Other observations

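*Olfr655* was second in 8 cells of 4 libraries with 8 different first ORs, none at most 100 kb away. It had 7 to 23 UMIs in these cells, whose median depth was 14269.5 UMIs, and 2 of them were predicted doublets. At least 1 *Olfr655* UMI was found in 1.03% of mOSNs and in 1.33% of sustentacular cells, but at least 3 in 0.325% and 0.0811%. It was named after its values were seen.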
